A study of Mus musculus with 12 samples.

Results

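Prostaglandin synthesis and receptor genes were compared across cultured keratinocytes, the cells that make up most of the epidermis, in a set of 10 mouse genes that release, make, inactivate or sense prostaglandins. The genes are Pla2g4a, Ptgs1, Ptgs2, Ptges, Ptges2, Hpgd, Ptgr1, Ptger2, Ptger3 and Ptger4. Each was taken as the array's transcript clusters (groups of probes that report a transcript) annotated with that symbol alone. Of the 10 genes, 9 had such a cluster, 1 each, and Ptgs1 was not analysed here. Of these 9, 8 passed the filter on low values, among 15868 genes tested, and Ptger2 did not.

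Prostaglandins are short-lived lipid signals. A phospholipase A2, such as the cytosolic enzyme encoded by Pla2g4a, frees arachidonic acid from membranes, a cyclooxygenase (Ptgs1 or the inducible Ptgs2) turns it into prostaglandin H2, and a terminal synthase such as that encoded by Ptges makes prostaglandin E2. The dehydrogenase encoded by Hpgd starts the inactivation of prostaglandin E2, the reductase encoded by Ptgr1 carries it on, and the receptors encoded by Ptger2, Ptger3 and Ptger4 sense the signal. In mouse skin, Ptgs2 is known for its part in inflammation and in tumour promotion.

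RNA came from primary keratinocytes of FVB/N mice, in 4 groups of 3 arrays. Wild-type cells were the control, and wild-type cells carrying v-rasHa, the oncogenic Hras of a mouse sarcoma virus, are called RAS cells here. MT-HGF cells came from mice transgenic for HGF, hepatocyte growth factor, which activates the MET receptor, in a line known to use a metallothionein promoter. The last group consisted of mock-transduced MT-HGF cells given AG1478, which blocks the kinase activity of the EGF receptor, for 24 h. No label names a vehicle-treated group, so a fall or rise with the drug is a difference between separate groups of arrays. The first 9 arrays share a label note of RAS transduction for 3 days and of regular medium, and the AG1478 arrays one of 8% FBS, so drug, serum, mock transduction and handling cannot be told apart in comparisons with them. The handling of wild-type and of MT-HGF cells in the transduction step, the number and age of the mice, and whether replicates came from separate cultures are not given in the sources used here. Sample titles call the wild-type, RAS and MT-HGF arrays biological replicates, while those of the AG1478 arrays give only a replicate number. P-values rest on the spread between arrays, which may be technical only in the AG1478 group. Whether that spread covers differences between mice or cultures is not known for any group.

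Values are log2 expression, so a difference of 1 is a factor of 2. Array medians lay between 6.77 and 6.84. As a background level, the 95th percentile of 159 odorant, vomeronasal and taste receptor genes lay between 6.83 and 7.22 on the 12 arrays. It was highest on the AG1478-treated arrays, at 7.10 to 7.22, against 6.83 to 7.09 on the arrays of the other groups. All 8 keratinocyte markers, Krt5 and Krt14 among them, were above it in all 4 groups, with an average over the list of 11.95 to 12.09 per array. All 6 melanocyte markers were also above it, with averages of 10.16 to 10.78 per array, and 5 of the 6 were lower in MT-HGF than in wild-type cells. Of 8 fibroblast markers, 7 were above it, with averages of 8.61 to 8.70 on wild-type, 8.01 to 8.07 on RAS and 8.45 to 8.54 on MT-HGF arrays. Those averages hold members that went both ways: in MT-HGF against wild-type cells 3 of the 8 were called higher and 5 lower, with Dcn going from a mean of 8.55 to 10.32 and Thy1 from 8.75 to 7.58. In RAS cells 4 were called lower and 4 gave no call. Of 6 leukocyte markers tested, 2 were called higher and 1 lower in RAS cells, and 2 and 2 in MT-HGF cells. The macrophage-associated Cd68 was above background on all 12 arrays, with means of 8.96 in wild type, 10.25 in RAS and 10.24 in MT-HGF cells. Lyz2, a myeloid lysozyme gene, was above it on the 3 wild-type arrays (mean 7.69) and on no other, while Ptprc, the general leukocyte marker, and all 4 endothelial markers tested were not above it in any group. The part of these other cell types in the differences from wild type was not tested. In bulk RNA, fewer cells of a type and less RNA per cell cannot be told apart.

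In RAS cells, Pla2g4a, Ptgs2 and Ptges, which act in release, cyclooxygenation and prostaglandin E2 synthesis, were higher than in wild type, as were Hpgd and Ptgr1, which act in inactivation, while the other synthase gene among the members, Ptges2, was lower. Ptges rose most, by 0.69 ± 0.082 log2 units (± SE of the fit, with 3 arrays per group; adjusted p = 4.75e-06 by limma). In all, 5 of the 8 tested members were called higher and 2 lower, at an adjusted p under 0.05. One of these 2, Ptger3, was below background on all 12 arrays. It passed the filter only through the 3 wild-type arrays, where it was highest, so its call is no support for a change. Ptger3 is still counted in the medians and overlap counts of the tested members. Calls were common in this comparison: 32.5% of all genes tested, with 12.6% higher and 19.9% lower. The median difference of the 8 tested members was 0.36, against -0.02 over all genes. The groups did not overlap for 7 of the 8, against 42.9% of all genes.

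In MT-HGF cells the same 5 members, Pla2g4a, Ptgs2, Ptges, Hpgd and Ptgr1, were called higher than in wild type, and the same 2, Ptges2 and Ptger3, lower. Ptger3 was again tested only because of the wild-type arrays. Hpgd rose by 1.12 ± 0.074 (adjusted p = 2.52e-09) and Ptges by 1.10 ± 0.082 (adjusted p = 1.15e-08). The background was 40.9% of all genes called, 17.1% higher and 23.9% lower. The median over the 8 tested members was 0.46, against -0.03 over all genes, and the groups did not overlap for any of the 8 (50.4% of all genes). Both comparisons use the same wild-type arrays. Set directly against RAS cells, MT-HGF cells had Hpgd, Pla2g4a and Ptges higher and no member lower, where 26% of all genes tested were called, 13.4% higher and 12.6% lower. The median over the 8 tested members was 0.12, against -0.02 over all genes. At an unadjusted p under 0.05, the count of members lower was also 0. The groups did not overlap for 4 of the 8 tested members, against 39.2% of all genes.

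After AG1478, the called members of MT-HGF cells went both ways. Pla2g4a and Ptgs2 were called lower, and Hpgd and Ptgr1 higher, than in MT-HGF cells without the drug, while Ptges, Ptges2, Ptger3 and Ptger4 gave no call. The background was 16.5% of all genes called, 6.57% higher and 9.91% lower. Arrays of these groups did not overlap for 6 of the 8 tested members, against 34.2% of all genes, and the members' median was -0.05, against 0.02 over all genes. Against wild type the AG1478-treated cells had Ptges, Hpgd and Ptgr1 called higher and Ptges2 and Ptger3 lower, where 42.9% of genes were called, 16.8% higher and 26.2% lower, and 6 of the 8 did not overlap (50.5% of all genes). The members' median there was 0.13, against 0.00 over all genes. Against RAS cells they had Hpgd, Ptgr1 and Ptges higher and Ptgs2 lower, where 36.7% were called, 16.3% higher and 20.4% lower, and 4 of the 8 did not overlap (45.8% of all genes). The members' median there was 0.06, against 0.02 over all genes.

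**Figure D1:**
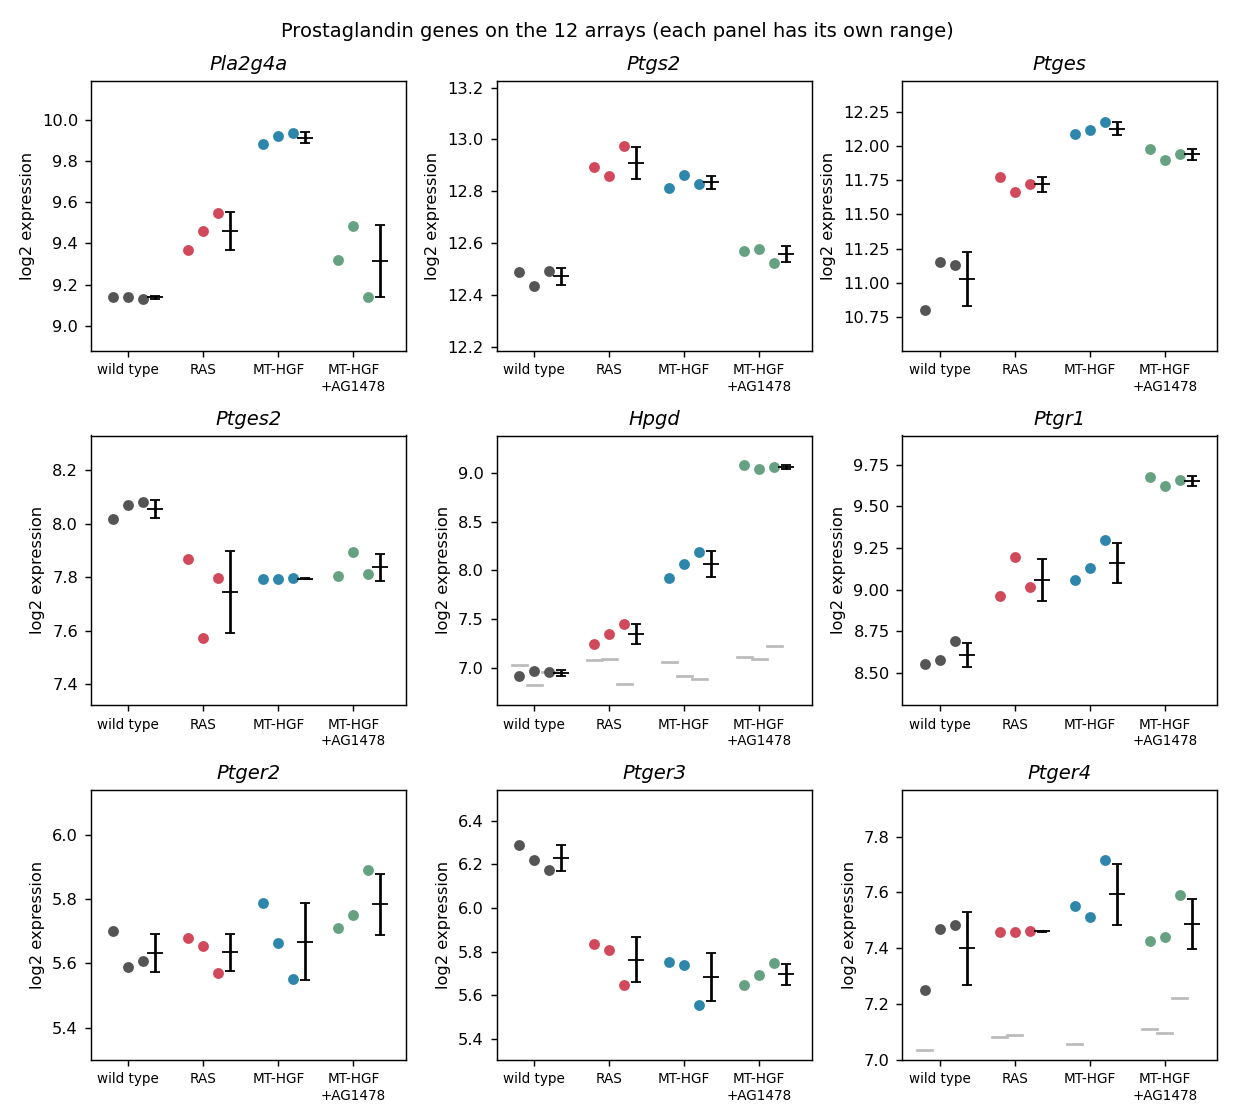
Log2 expression (y axis) of the 9 measured members on each of the 12 arrays (points), by group, with the group mean and SD (black bars) and, where it falls within a panel, each array's background level (grey ticks). Ptgs2 is higher in RAS and MT-HGF cells than in wild-type and AG1478-treated cells, and Hpgd climbs from wild type at 6.95 to AG1478-treated cells at 9.06.

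Pla2g4a encodes the cytosolic phospholipase A2 that supplies arachidonic acid. It read 9.14, 9.14 and 9.13 on the wild-type arrays, 9.37, 9.46 and 9.55 on the RAS arrays, and 9.88, 9.92 and 9.94 on the MT-HGF arrays. The AG1478-treated arrays read 9.32, 9.48 and 9.14, the widest spread of the 4 groups for this gene. Wild type, RAS and MT-HGF did not overlap one another. The AG1478-treated arrays lay below all MT-HGF arrays and overlapped both other groups. Pla2g4a was higher by 0.32 ± 0.079 in RAS (adjusted p = 0.00461) and by 0.77 ± 0.079 in MT-HGF cells (adjusted p = 5.63e-07), 1.25-fold and 1.71-fold. MT-HGF exceeded RAS cells by 0.45 ± 0.079 (adjusted p = 0.000473). With AG1478 the gene fell by 0.60 ± 0.079 (adjusted p = 4.74e-05). The AG1478-treated cells stood 0.18 above wild type, with a 95% interval of 0.01 to 0.34 and no call (adjusted p = 0.0873). Without the third AG1478-treated array this became 0.26 and a call (adjusted p = 0.00856).

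Of 11 other phospholipase A2 genes, 10 were tested, and 3 of the cytosolic group IV rose with Pla2g4a. In RAS cells 4 of the 10 were called higher and 0 lower, with a list median of 0.03. At an unadjusted p under 0.05 the count lower in RAS cells was also 0. Pla2g4e rose from 7.48 to 7.75 on wild-type arrays to 9.88 to 10.28 on RAS arrays, a difference of 2.44 ± 0.10 (adjusted p = 6.39e-12). Pla2g4d and Pla2g4f were not above background in wild type, so their rises are bounds against it, at least 3.79-fold and 1.95-fold. The secreted enzyme gene Pla2g2f was at least 1.87-fold higher. In MT-HGF cells 5 of the 10 were higher and 2 lower, with Pla2g4e at 2.36 ± 0.10, Pla2g4f at least 2.60-fold and Pla2g4d at least 2.50-fold higher. After AG1478 the 3 group IV genes were lower, as Pla2g4a was, with Pla2g4e at -1.04 ± 0.10 (adjusted p = 1.80e-06), Pla2g4f at -0.72 ± 0.080 and Pla2g4d at least 2.17-fold lower. Pla2g2f went the other way, from 7.46 to 7.90 without the drug to 8.69 to 8.95 with it, a rise of 1.18 ± 0.10 (adjusted p = 6.45e-07).

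Ptgs2, which encodes the inducible cyclooxygenase, was higher in both RAS and MT-HGF cells and lower after the drug. It read 12.49, 12.43 and 12.49 in wild type, 12.89, 12.86 and 12.98 in RAS, and 12.81, 12.86 and 12.83 in MT-HGF cells. The AG1478-treated arrays read 12.57, 12.58 and 12.52. In every group, wild type included, Ptgs2 was among the highest values of the array, at median percentiles of 99.0 to 99.5. The RAS and MT-HGF arrays overlapped each other and lay above all arrays of the other groups. Ptgs2 rose 1.35-fold in RAS (0.44 ± 0.060, adjusted p = 2.24e-05) and 1.29-fold in MT-HGF cells (0.36 ± 0.060, adjusted p = 0.000103). The difference of MT-HGF from RAS was -0.07, with an interval of -0.20 to 0.05 (adjusted p = 0.435). With AG1478 it fell by 0.28 ± 0.060 (adjusted p = 0.00367). The treated cells then lay 0.09 above wild type, with an interval of -0.04 to 0.21 (adjusted p = 0.273), although the 3 arrays of each group did not overlap.

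The bases just before the start of transcription are shown for Ptgs2 and for Hpgd, the member with the largest difference from wild type, because these genes went opposite ways with AG1478. Each line is the 250 bases before the annotated start, 5′ to 3′ on the gene's strand, from RefSeq on GRCm38.p6. Capitals mark any match to the motifs named next.
Ptgs2 promoter, chr1:150099781-150100030, plus strand: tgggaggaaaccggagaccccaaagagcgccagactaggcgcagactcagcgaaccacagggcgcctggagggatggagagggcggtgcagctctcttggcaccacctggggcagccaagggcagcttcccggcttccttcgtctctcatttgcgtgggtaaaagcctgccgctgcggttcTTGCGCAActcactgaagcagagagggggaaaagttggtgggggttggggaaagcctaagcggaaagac
Hpgd promoter, chr8:56294302-56294551, plus strand: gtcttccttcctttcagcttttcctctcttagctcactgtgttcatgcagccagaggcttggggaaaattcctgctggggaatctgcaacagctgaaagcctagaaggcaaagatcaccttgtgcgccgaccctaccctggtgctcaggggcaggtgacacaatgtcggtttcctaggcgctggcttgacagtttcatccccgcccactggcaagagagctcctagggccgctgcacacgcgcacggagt

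The motifs searched, on both strands, were the cyclic AMP response element as TGACGTCA or as its shorter core TGACG, which the longer form contains, the E-box CACGTG, the TATA box TATAAA, the C/EBP motif TTGCGCAA, AP-1 as TGACTCA or TGAGTCA, and the NF-kappaB motif GGACTTTCC. The Ptgs2 window, which ends at the annotated RefSeq start, held 1 match, the C/EBP letters at positions -69 to -62 from that start. These letters stood in 54 of 32851 RefSeq promoter windows of this length, or 0.164%. The Hpgd window held none of the motifs. Among the other members, the Ptges2 window held the E-box at -77 to -72 (6.02% of all windows), and the window of the other annotated start of Pla2g4a held a TATA box on the reverse strand (12.4%). A full cyclic AMP response element stood in 1.55% of all windows, its core in 17.8%, AP-1 in 4.46% and the NF-kappaB letters in 0.283%, and no member's window held any of these 4. A match describes letters in the reference genome and not binding. Bases after the annotated start, or more than 250 before it, were not searched. The lack of a match in a window therefore does not mean that the gene's promoter lacks the motif.

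Of 11 genes for factors known to act on the Ptgs2 promoter, 10 were tested. Cebpb, which encodes a C/EBP factor, read 8.57 to 8.74 in wild type, 9.04 to 9.14 in RAS, 9.09 to 9.22 in MT-HGF and 9.16 to 9.30 in AG1478-treated cells. It rose by 0.43 ± 0.070 in RAS (adjusted p = 0.000134) and by 0.49 ± 0.070 in MT-HGF cells (adjusted p = 2.32e-05), with a difference of 0.08 after the drug that gave no call. Fos, of the AP-1 family, rose by 1.32 ± 0.071 in RAS and 1.67 ± 0.071 in MT-HGF cells, and fell by 1.04 ± 0.071 with AG1478 (adjusted p = 3.57e-08). The whole list had 2 genes higher and 1 lower in RAS, 2 and 4 in MT-HGF and 2 and 1 after AG1478. Jun was at -0.42 in MT-HGF cells and rose by 0.39 with the drug.

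Ptges encodes the inducible membrane synthase of prostaglandin E2. It read 10.80, 11.15 and 11.13 in wild type, 11.78, 11.66 and 11.72 in RAS, 12.09, 12.12 and 12.18 in MT-HGF and 11.98, 11.90 and 11.95 in AG1478-treated cells. No array of one group overlapped another group, and the first wild-type array stood below the other two. Ptges was 1.62-fold higher in RAS and 2.14-fold higher in MT-HGF than in wild-type cells, and MT-HGF exceeded RAS by 0.41 ± 0.082 (adjusted p = 0.00156). After AG1478 it differed by -0.19 ± 0.082 without a call (adjusted p = 0.138), and with the first wild-type array left out of the shared fit the adjusted p was 0.0425. It stayed 1.88-fold above wild type (0.91 ± 0.082, adjusted p = 1.41e-07). Its excess of 0.22 over RAS cells (adjusted p = 0.0472) rested on a narrow margin, with adjusted p from 0.0503 to 0.148 when any of 10 single arrays was left out, and no call without the filter on low values (adjusted p = 0.0533).

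Ptges2, which encodes another membrane-associated synthase, went the opposite way. It read 8.02, 8.07 and 8.08 in wild type, 7.87, 7.57 and 7.80 in RAS, 7.79, 7.79 and 7.80 in MT-HGF and 7.81, 7.90 and 7.81 in AG1478-treated cells. Wild type lay above all other arrays, and the other groups lay close together. It fell by 0.31 ± 0.073 in RAS (adjusted p = 0.00328) and fell by 0.26 ± 0.073 in MT-HGF cells (adjusted p = 0.00804). The AG1478-treated cells were at -0.22 against wild type (adjusted p = 0.0231), a call lost (adjusted p of 0.0555 to 0.0741) without the second or the third wild-type array or without the first or the third AG1478-treated array.

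Among 11 other prostanoid synthase and reductase genes, 10 were tested, with 2 higher and 1 lower in RAS, 3 and 1 in MT-HGF, and 2 and 2 after AG1478. Hpgds, the hematopoietic prostaglandin D synthase gene, rose most in RAS cells, from 7.82 to 7.87 in wild type to 8.89 to 9.16, or by 1.15 ± 0.082 (adjusted p = 8.66e-09). MT-HGF cells had less of it than RAS cells, with a difference of -0.77 ± 0.082 (adjusted p = 3.46e-06). Ptgds, the lipocalin-type prostaglandin D synthase gene, fell by 0.81 ± 0.11 in MT-HGF cells (adjusted p = 1.97e-05) and stood at -0.11 in RAS cells without a call. The melanocyte markers moved with it, with 5 of 6 lower in MT-HGF and 0 of 6 called in RAS cells, and their part in the Ptgds value was not tested. Ptges3, the cytosolic synthase and cochaperone gene, fell by 0.32 ± 0.064 with AG1478. Prxl2b, which encodes a prostamide and prostaglandin F synthase, rose by 0.33 in MT-HGF cells and by a further 0.45 ± 0.086 with AG1478 (adjusted p = 0.00134).

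**Figure D2:**
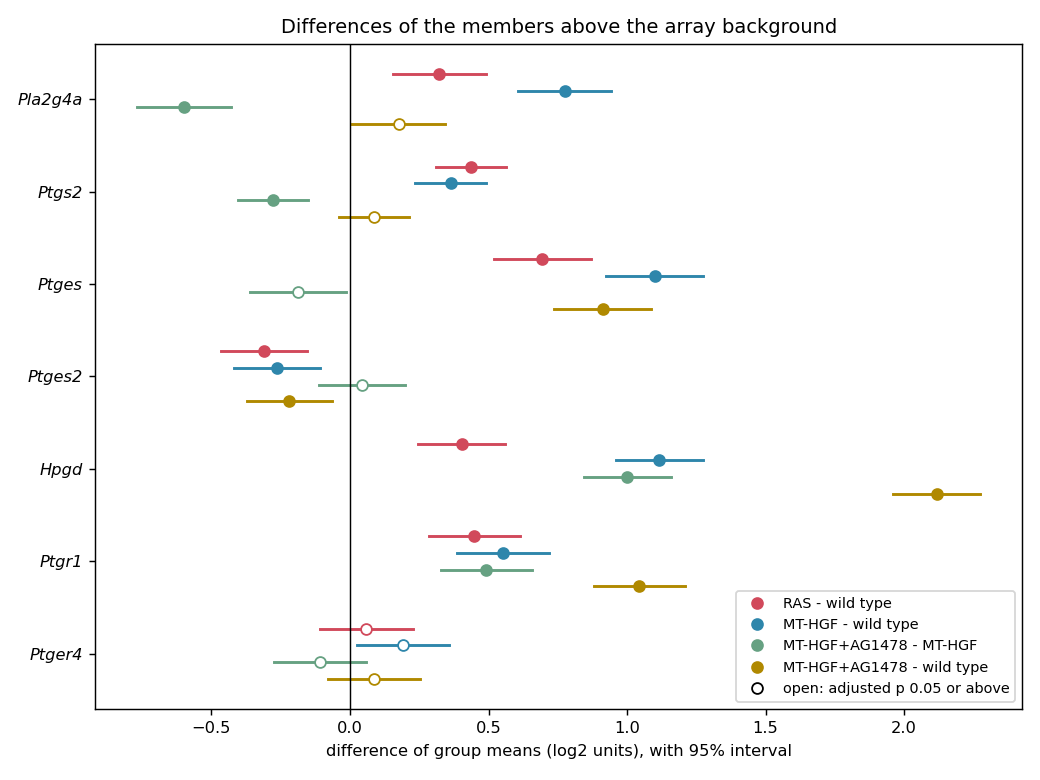
Difference of group means in log2 units (x axis; points) with its 95% interval (lines) for the 7 tested members with a group above background, in 4 comparisons; open points had an adjusted p of 0.05 or above. Pla2g4a and Ptgs2 lie left of 0 in the comparison of AG1478-treated with MT-HGF cells, at -0.60 and -0.28, and Hpgd and Ptgr1 right of it, at 1.00 and 0.49.

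Hpgd encodes the dehydrogenase that begins the breakdown of prostaglandin E2, and among members above background its differences were the largest in every comparison but RAS against wild type, where those of Ptges, Ptgr1 and Ptgs2 were larger. It read 6.92, 6.97 and 6.96 in wild type, 7.24, 7.35 and 7.45 in RAS, 7.93, 8.07 and 8.19 in MT-HGF and 9.09, 9.04 and 9.07 in AG1478-treated cells. The 4 groups formed separate steps with no overlap. Only 2 of the 3 wild-type values were above their array's background, so differences from wild type may understate the change. Hpgd was 1.32-fold higher in RAS (0.40 ± 0.074, adjusted p = 0.000443) and 2.17-fold higher in MT-HGF cells, and MT-HGF exceeded RAS by 0.71 ± 0.074 (adjusted p = 2.86e-06). AG1478 was followed by a further rise of 1.00 ± 0.074 (adjusted p = 9.74e-08). By absolute size this difference ranked 104 of the 15868 genes. Treated cells were 4.34-fold above wild type (2.12 ± 0.074, adjusted p = 1.63e-12) and 1.71 ± 0.074 above RAS cells.

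Ptgr1, whose reductase acts on the product of the Hpgd enzyme and also inactivates leukotriene B4, followed a similar course. It read 8.55, 8.58 and 8.69 in wild type, 8.96, 9.20 and 9.01 in RAS, 9.06, 9.13 and 9.30 in MT-HGF and 9.68, 9.62 and 9.66 in AG1478-treated cells. RAS and MT-HGF arrays overlapped, while wild type lay below and AG1478-treated arrays above all others. Ptgr1 rose by 0.45 ± 0.078 in RAS (adjusted p = 0.00026) and by 0.55 ± 0.078 in MT-HGF cells (adjusted p = 2.15e-05). MT-HGF and RAS differed by 0.10, with an interval of -0.06 to 0.27 (adjusted p = 0.396). With AG1478 it was higher by 0.49 ± 0.078 (adjusted p = 0.000273), and the treated cells stood 2.06-fold above wild type. Zadh2, a related reductase gene, rose by 0.63 ± 0.074 in RAS and 0.58 ± 0.074 in MT-HGF cells, but fell by 0.27 ± 0.074 with AG1478 (adjusted p = 0.0179).

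Of the 2 transport genes, Slco2a1, whose product takes prostaglandins into cells, was lower with the drug, as Pla2g4a was. It read 9.51 to 9.60 in wild type, 9.68 to 9.85 in RAS, 10.11 to 10.18 in MT-HGF and 9.35 to 9.66 in AG1478-treated cells. It rose by 0.57 ± 0.077 in MT-HGF cells (adjusted p = 1.33e-05) and fell by 0.64 ± 0.077 with AG1478 (adjusted p = 1.75e-05). Abcc4, whose product exports prostaglandins among other substrates, fell by 0.39 ± 0.076 in RAS and fell by 0.53 ± 0.076 in MT-HGF cells, and gave no call after the drug (0.21).

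**Figure D3:**
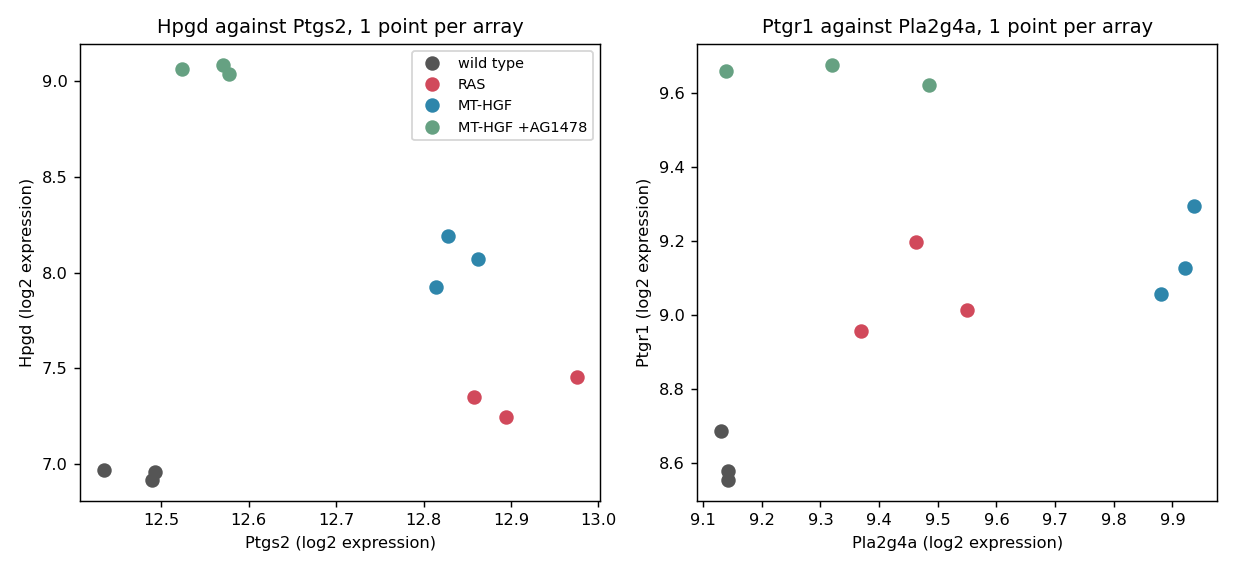
Log2 expression of Hpgd against Ptgs2 (left) and of Ptgr1 against Pla2g4a (right), with 1 point per array coloured by group. AG1478-treated arrays stand alone at the upper left of the first panel, with Ptgs2 at 12.52 to 12.58 beside Hpgd at 9.04 to 9.09.

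The receptor genes gave low values. Ptger4, whose receptor raises cyclic AMP, was above background on all 12 arrays. It read 7.25, 7.47 and 7.48 in wild type, 7.46, 7.46 and 7.46 in RAS, 7.55, 7.51 and 7.72 in MT-HGF and 7.43, 7.44 and 7.59 in AG1478-treated cells. The groups lay within a narrow range, and none of the 6 comparisons gave a call. The difference of MT-HGF from wild type was 0.19, with an interval of 0.03 to 0.36 (adjusted p = 0.0607), and it passed the threshold without the third AG1478-treated array (adjusted p = 0.0448). That of RAS was 0.06, with an interval of -0.11 to 0.23, and that of AG1478 -0.11, with an interval of -0.27 to 0.06.

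Ptger3, whose receptor lowers cyclic AMP, read 6.29, 6.22 and 6.17 in wild type and 5.56 to 5.84 on the other 9 arrays. Wild type stood above the rest, but every value was below its array's background, so no size is given for the calls against wild type. Ptger2, the other receptor that raises cyclic AMP, read 5.55 to 5.89 over all 12 arrays, below background on each. Without the filter it gave no call in any comparison, with adjusted p from 0.124 to 0.992. Of 6 other prostanoid receptor genes 5 were tested, with 1 higher and 1 lower in both RAS and MT-HGF cells and 0 called after AG1478 (1 at an unadjusted p under 0.05). The thromboxane receptor gene Tbxa2r fell by 0.35 ± 0.11 in RAS (adjusted p = 0.0214) and fell by 0.37 ± 0.11 in MT-HGF cells (adjusted p = 0.0106). Its means there, 7.10 and 7.07, were near background, and 2 of the 3 MT-HGF arrays were above it, so these sizes may be understated. Ptgir, the gene called higher in both, was not above background in any group.

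Arachidonic acid also feeds lipoxygenases, and 11 genes of that branch were tested. In RAS cells 2 were higher and 0 lower, in MT-HGF cells 3 and 0, and after AG1478 1 and 2. At an unadjusted p under 0.05 the counts lower were 0 in RAS and 1 in MT-HGF cells. Alox12b and Aloxe3, whose enzymes act in sequence in the epidermal water barrier, were the 2 higher in RAS cells. Alox12b rose more, from a mean of 7.89 in wild type to 10.94 in RAS cells. Aloxe3 went from 9.05 to 9.17 in wild type to 10.96 to 11.17, or by 1.95 ± 0.075 (adjusted p = 2.75e-12). With AG1478 Alox12b fell by 0.89 ± 0.10 and Aloxe3 fell by 0.49 ± 0.075 (adjusted p = 0.000202). Alox12, the platelet-type lipoxygenase gene, was above background in MT-HGF cells, at least 1.13-fold over wild type, and rose by a further 0.40 ± 0.084 with the drug. Of the leukotriene genes, Alox5, Alox5ap and Ltc4s were not above background in any group. Lta4h, whose enzyme makes leukotriene B4, and Ltb4r1, which encodes a receptor for it, were above background on all 12 arrays, with group means of 9.15 to 9.35 and 7.37 to 7.70. Ltb4r1 was called higher in MT-HGF than in RAS cells (0.33, adjusted p = 0.0171), and neither gene was called in RAS or MT-HGF cells against wild type or after AG1478.

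**Figure D4:**
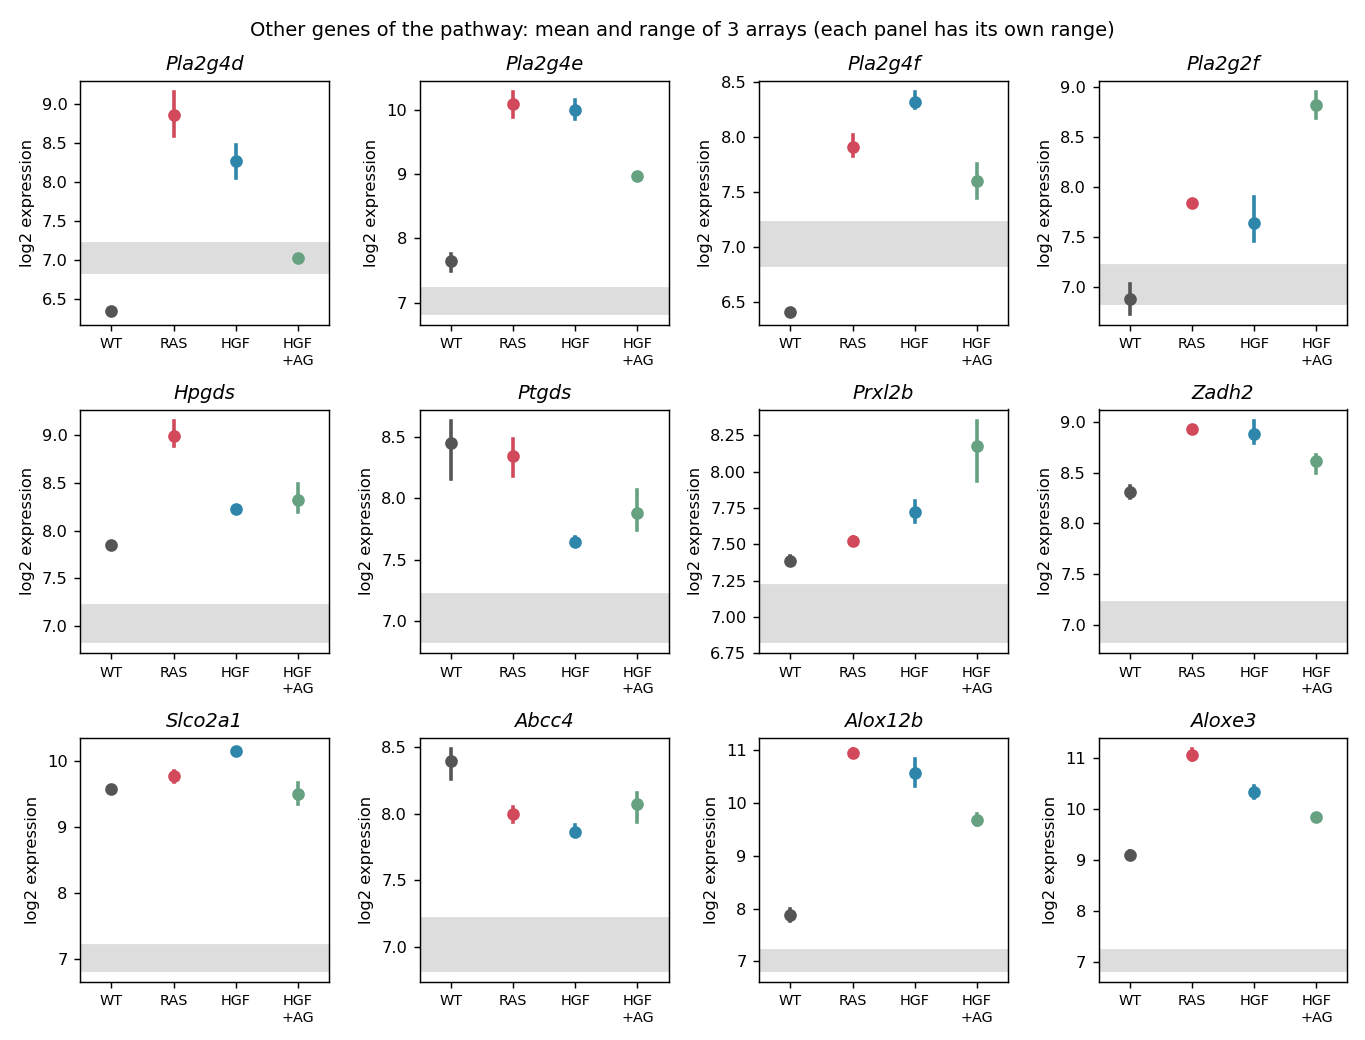
Mean (points) and range (lines) of log2 expression on 3 arrays per group for 12 other genes of the pathway, with the range of the arrays' background levels as a grey band. The group IV phospholipase genes Pla2g4d, Pla2g4e and Pla2g4f are high in RAS and MT-HGF cells and lower with AG1478, while Pla2g2f is highest with AG1478, at 8.82.

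Over the 12 arrays, the genes whose pattern was most like that of Ptgs2 were Mmp1b, Hbegf, Fabp4, Cdk17 and Snx9, with Pearson correlations of 0.985 to 0.993. For Hpgd they were Stfa3, Blnk, Lcn2, Galnt6 and Porcn, at 0.984 to 0.995. The arrays fall into 4 groups, so the points share 4 group means, and the correlations carry no test.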

How the data were processed

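Total RNA of 12 samples was measured, 1 array each, on the Affymetrix Mouse Gene 1.0 ST platform. The deposited values are log2 expression per transcript cluster that the authors made with RMA, per the submitters' processing notes. The version, and whether all arrays went through 1 run, are not given in the sources used here. Groups came from the sample titles, which give 4 conditions where the series text names 3. The platform annotation gave 21789 of 35511 clusters a single symbol. Clusters had to exceed the 30th percentile of the array on 3 arrays or more, and a gene with several was represented by the one with the highest mean.

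With limma 3.58.1 (R 4.3.3), 1 linear model with a mean per group took in all 12 arrays (8 residual and 8.02 prior degrees of freedom), with two-sided p-values adjusted by Benjamini-Hochberg over 15868 genes in each of 6 comparisons. Errors are the standard errors of this fit. The fit was tested on simulated data. Where a gene was not above background on any array of the lower group, a fold is a bound against the mean of these arrays' background levels, and where neither group was above it no size is given. All members are named, and of each other list up to 4 called genes with the largest differences; some examples outside this rule (Cebpb, Jun, Prxl2b, Ptges3, Zadh2, Abcc4, Alox12, Ptgds, Hpgds, Lta4h, Ltb4r1, Dcn, Thy1, Cd68 and Lyz2 among them) were chosen after their values were seen. Zadh2 was matched to a reductase list by its synonym. Members and lists were chosen with earlier results of these data known. Arrays have no read depth, and 3 per group limit the precision. Alternatives changed the filter, scaling, variance model, array weights, arrays in the fit, cluster rule and replicate block. Replicate numbers are shared across groups, but no label says that they pair arrays, so they were not treated as pairs. Same-numbered arrays deviated together (correlation over 0.1) in 7 of 18 pairs, and differently numbered ones in 10 of 36. Among wild-type, RAS and MT-HGF arrays, those numbered 1 correlated at 0.40 to 0.53 and those numbered 3 at 0.27 to 0.50. Those numbered 2 correlated at -0.24 to 0.09, and differently numbered arrays reached 0.55. A shared effect of the replicate number was not tested.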

Additional observations from a re-analysis of the deposited data

How the results depend on the processing

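No call of a member changed direction under any alternative. Of 1026 single-member values under alternatives, 1000 kept their side of the threshold, 18 lost a call and 8 gained one. Most losses were those of Ptges against RAS cells after AG1478, which also missed the threshold with median centring (adjusted p = 0.0894) and renewed quantile normalization (0.0673). Gains included Pla2g4a after AG1478 against wild type with array weights (0.000864) or renewed quantile normalization (0.0131). Weighting arrays by quality put 3100 genes above wild type in RAS cells and 4996 below it, and after AG1478 1795 were higher than in MT-HGF and 4367 higher than in wild-type cells. A stricter filter, at the 50th percentile, left 1 member lower in RAS, in MT-HGF and in AG1478-treated cells against wild type, since Ptger3 was then not tested. Leaving out 1 array at a time gave 683 to 1132 genes higher after AG1478 (683 without the second MT-HGF array), 1 to 2 members lower in AG1478-treated cells against wild type and 1 to 2 against RAS cells, where Pla2g4a was the added gene without the second AG1478-treated array (adjusted p = 0.0301). With the replicate number as a block, 5 members were higher in RAS and 6 in MT-HGF cells, Ptger4 being the sixth (0.0375), and Ptges against RAS cells after AG1478 was at 0.0512. Leaving out the AG1478-treated arrays, chosen after seeing the data, changed no member's call in the comparisons among the other 3 groups. Genes near background, such as Hpgd in wild type, may have understated differences.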

Other observations

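Of 9 genes that respond to cyclic AMP, the messenger of the Ptger2 and Ptger4 receptors, RAS cells had 2 higher and 3 lower, MT-HGF cells 2 and 2 and AG1478-treated against MT-HGF cells 2 and 2. Rgs2, which encodes a regulator of G-protein signalling, read 6.01 to 6.25 in wild type, 8.09 to 8.33 in RAS, 8.31 to 8.82 in MT-HGF and 7.60 to 7.92 in AG1478-treated cells. It was not above background in wild type and was at least 2.36-fold higher in RAS and at least 3.17-fold higher in MT-HGF cells. After AG1478 it fell by 0.82 ± 0.12 log2 units (± SE of the fit; adjusted p = 0.000105 by limma). Pde4d, which encodes a phosphodiesterase that degrades cyclic AMP, fell by 0.53 ± 0.063 in RAS and fell by 0.58 ± 0.063 in MT-HGF cells. Nr4a1, an early response gene, fell by 0.49 ± 0.063 after AG1478 (adjusted p = 3.65e-05), while Sik1 rose by 0.34 ± 0.077.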
